A study of Mus musculus with 15 samples.

Results

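The Wnt pathway genes were the 44 genes, of 14583 in at least 1 of the 4 deposited tables, whose symbols name a Wnt ligand, a Frizzled receptor, or another receptor, inhibitor, cytoplasmic or nuclear component of the pathway. They were chosen by symbol and joined across the tables by Ensembl identifier. Both the members and the gene lists read further below were chosen with earlier results of these data known. The 44 genes comprised 7 ligands, 2 genes for ligand export, 8 Frizzled receptors, 4 co-receptors, 2 planar polarity genes, 1 secreted inhibitor, 2 R-spondin receptors, 2 receptor ubiquitin ligases, 3 Dishevelled genes and 1 Dishevelled inhibitor. The remaining members were 2 genes of the destruction complex, Ctnnb1 for beta-catenin, 4 TCF/LEF factors and 5 Groucho co-repressors. All 4 tables held 38 of the 44 genes. GENCODE M21 has 69 genes that match the symbols. The other 25, among them Axin2, Lgr5, Dkk1 and Wnt5a, had no values here and could not be analysed.

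RNA was sequenced from mouse 4T1 cells, a mammary carcinoma line, in 15 samples that form 5 groups of 3. Recipient cells in 2D culture with 2% FBS, which were Padi4KO by the study's methods, received nuclear expulsion products (NEPs, called exsporosi in the labels), apoptotic debris (apoDBs) or vehicle. NEPs came from Padi4WT and apoDBs from Padi4KO 4T1 cells carrying an inducible caspase-9 that was switched on with AP1903. For every 500 recipient cells, the products of 5000 donors were added. The other 2 groups were spheroids of Padi4WT or Padi4KO cells, kept for 3 days in ultralow attachment plates and for 7 days after 75% Matrigel was added. Padi4KO cells had been made with Cas9 and guide RNAs under puromycin. The study kept several 4T1 Padi4KO clones, and the one or ones used for these RNA samples are not named in the sources used here. Nothing in the labels says that the 3 samples of a group came from separate cultures, so the p-values measure the spread between these samples, which may be technical.

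Wnt proteins are lipid-modified by Porcn, carried to the surface by Wls and bound by Frizzled receptors with Lrp5 or Lrp6. The signal runs through Dishevelled and blocks the destruction complex of Apc and Axin, so that beta-catenin enters the nucleus and joins TCF/LEF factors, which otherwise sit on their target genes with Groucho co-repressors. Ror1, Ryk and the Vangl proteins belong to branches of the pathway that do not use beta-catenin, and in the mammary gland Wnt signaling is known for its role in ductal growth and in the basal cells.

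Each table gives a fold change between groups and a limma p-value, with no values per sample and no levels, so the depth, the spread between replicates and whether groups overlapped are unknown. False discovery rates (FDR) were computed over all genes of a table, and a gene is said to have risen or fallen at an FDR below 0.05. Fold changes are given on the log2 scale unless named as linear. Padi4, the targeted gene, had a log2 fold change of 2.06 in Padi4WT over Padi4KO spheroids, with an FDR of 0.000542. It was also listed in the 2D tables, where all recipients were Padi4KO by the study's methods: its log2 fold change was 0.15 with NEPs against vehicle (FDR 0.109), -0.84 with apoDBs against vehicle (FDR 0.000324) and 1.01 with NEPs against apoDBs (FDR 1.19e-06). The tables give no level, so they do not check the genotype of the recipients, and the part of this difference in the 2D results was not tested. Of 6 mammary epithelial markers, 5 were listed in each table, while 3 of 8 stromal, 1 of 7 immune and 0 of 4 endothelial markers were listed in any. In bulk samples, fewer cells of a type and less RNA per cell cannot be told apart.

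The promoters below are shown because 7 members passed the limits of the study's signature, which ask for a log2 size over 2 and for an FDR under 0.0001, in at least 1 comparison. RefSeq promoters on GRCm38.p6, 300 bases long from 250 before to 50 after the start site, were given for 31 of the 44 members, and Sfrp1, the seventh gene, is only named. Capitals mark the TCF/LEF core CTTTGA on either strand, which reads TCAAAG on the other.
Lef1, first start site (chr3:131110047-131110346, plus strand): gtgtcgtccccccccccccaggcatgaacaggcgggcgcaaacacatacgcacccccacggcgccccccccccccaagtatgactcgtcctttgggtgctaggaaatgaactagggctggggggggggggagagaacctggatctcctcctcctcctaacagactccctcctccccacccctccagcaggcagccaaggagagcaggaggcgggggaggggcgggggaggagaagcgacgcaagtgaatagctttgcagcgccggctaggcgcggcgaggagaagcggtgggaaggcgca
Lef1, last start site (chr3:131156044-131156343, plus strand): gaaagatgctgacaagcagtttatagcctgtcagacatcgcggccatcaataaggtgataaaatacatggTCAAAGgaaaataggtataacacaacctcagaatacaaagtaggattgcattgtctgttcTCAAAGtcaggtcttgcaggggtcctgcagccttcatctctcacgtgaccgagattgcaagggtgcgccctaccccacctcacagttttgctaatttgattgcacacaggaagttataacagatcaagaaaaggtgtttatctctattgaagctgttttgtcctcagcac
Ror1 (chr4:100095541-100095840, plus strand): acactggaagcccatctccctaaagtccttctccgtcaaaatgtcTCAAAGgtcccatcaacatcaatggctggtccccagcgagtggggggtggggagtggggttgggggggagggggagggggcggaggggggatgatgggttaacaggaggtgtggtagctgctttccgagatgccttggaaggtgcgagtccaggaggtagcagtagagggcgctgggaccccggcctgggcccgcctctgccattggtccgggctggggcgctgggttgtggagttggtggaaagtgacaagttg
Lgr6 (chr1:135105227-135105526, minus strand): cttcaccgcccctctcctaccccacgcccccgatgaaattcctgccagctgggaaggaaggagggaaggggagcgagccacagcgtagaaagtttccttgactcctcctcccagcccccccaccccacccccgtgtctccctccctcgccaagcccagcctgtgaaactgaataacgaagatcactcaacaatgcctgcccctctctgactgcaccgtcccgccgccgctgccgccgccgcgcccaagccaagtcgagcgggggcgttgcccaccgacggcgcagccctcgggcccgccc
Fzd4 (chr7:89404116-89404415, plus strand): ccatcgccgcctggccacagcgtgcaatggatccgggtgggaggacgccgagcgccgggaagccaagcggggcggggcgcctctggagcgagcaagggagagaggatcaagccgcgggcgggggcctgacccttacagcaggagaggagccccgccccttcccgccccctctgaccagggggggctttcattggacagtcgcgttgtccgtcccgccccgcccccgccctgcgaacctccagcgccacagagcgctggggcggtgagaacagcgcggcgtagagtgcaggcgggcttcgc
Fzd5 (chr1:64737701-64738000, minus strand): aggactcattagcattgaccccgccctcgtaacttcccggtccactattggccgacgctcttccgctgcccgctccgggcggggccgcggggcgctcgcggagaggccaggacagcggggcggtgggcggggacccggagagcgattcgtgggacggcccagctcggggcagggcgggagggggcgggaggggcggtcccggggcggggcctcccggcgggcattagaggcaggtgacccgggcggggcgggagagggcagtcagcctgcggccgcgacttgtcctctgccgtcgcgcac
Tle4, first start site (chr19:14598134-14598433, minus strand): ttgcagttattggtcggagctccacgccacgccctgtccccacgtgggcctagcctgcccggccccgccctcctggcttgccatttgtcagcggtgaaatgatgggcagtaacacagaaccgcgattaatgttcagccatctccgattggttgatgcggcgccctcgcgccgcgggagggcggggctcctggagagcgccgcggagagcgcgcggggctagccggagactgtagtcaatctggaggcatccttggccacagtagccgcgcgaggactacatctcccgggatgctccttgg
The core was found in 4 of the 42 promoters of members, or 9.52%, and in 16.0% of all 32851 promoters of the same length. It occurred in promoters of Lef1, Ror1, Fzd1 and Wnt5b. In Lef1 both matches lay before the last start site, at positions -180 and -120 counted from it, and in Ror1 the match lay at position -205. The median GC content was 67.3% in the members' promoters and 52.7% in all promoters, and the part of this in the lower share of matches was not tested.

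In spheroids, the question was how Padi4WT cells, which can expel their nuclei, differ from Padi4KO cells. The secreted inhibitor Sfrp1 and the transcription factor Lef1 were far higher in Padi4WT spheroids, and the R-spondin receptor Lgr6 was 5.01-fold higher. The receptors Fzd4 and Fzd5, the ligands Wnt7a and Wnt9a, the receptor kinase Ror1, the acyltransferase Porcn and the co-repressor Tle4 all fell, with log2 fold changes between -3.12 and -2.02. Of the 42 members in the table, 26 passed, or 61.9% against 47.8% of all genes: 9 rose, 17 fell and 16 did not pass. Among all genes 21.7% rose and 26.1% fell, against 21.4% and 40.5% of the members. A log2 size above 1 was reached by 18 of those that passed, where 26% of all genes did so, and the signature limits by 7 members, against 4.05% of all genes. The median log2 fold change was -0.14 over the members and -0.08 over all genes, and the median size was 0.80 and 0.55.

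**Figure D1:**
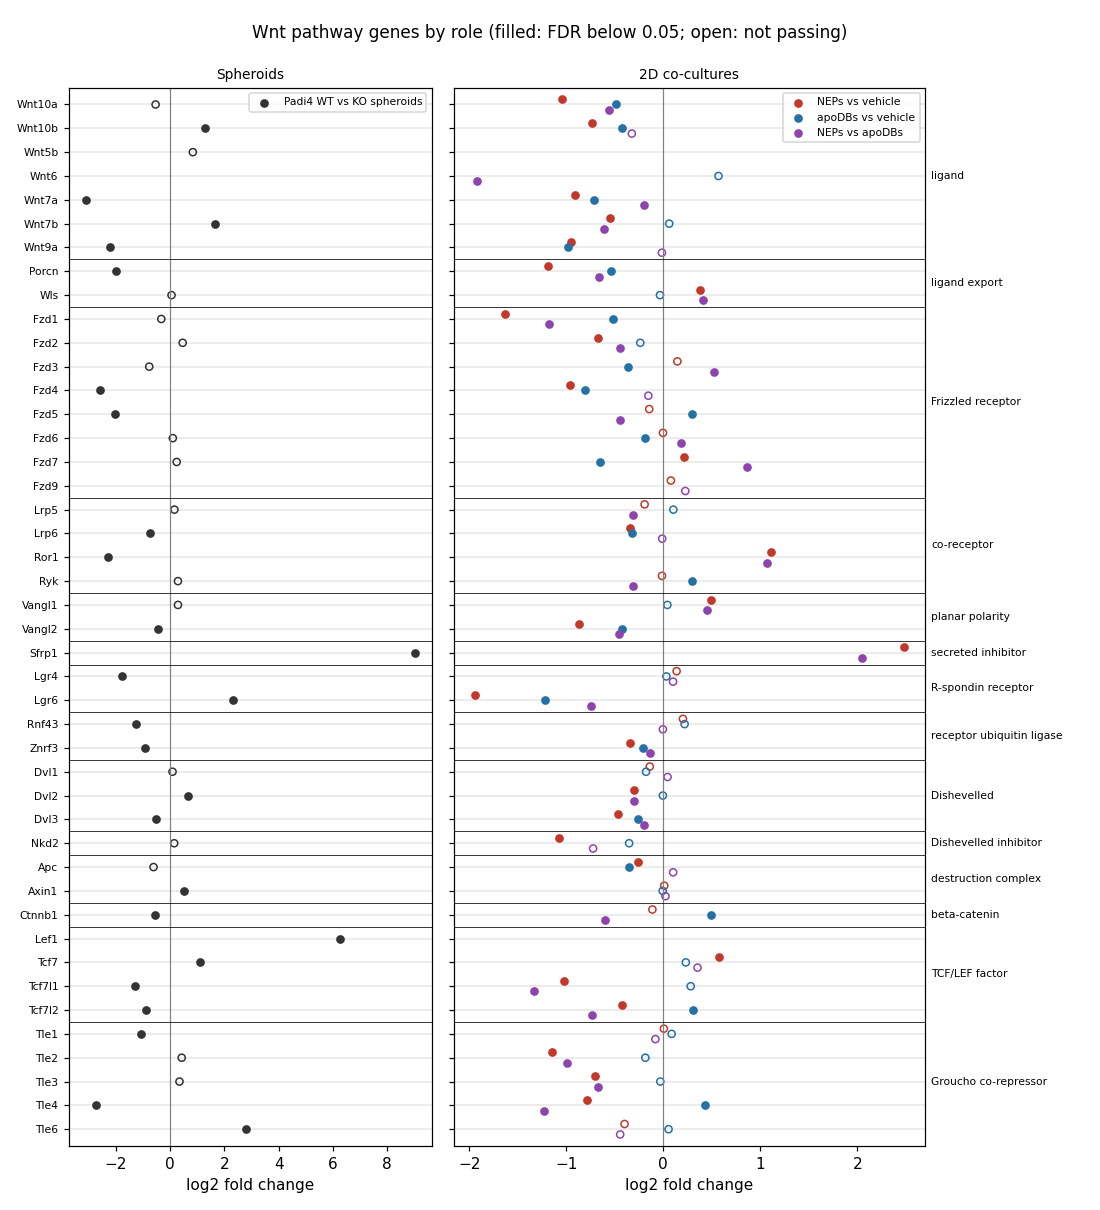
Log2 fold change of each Wnt pathway gene (rows, grouped by role) in Padi4WT against Padi4KO spheroids (left) and in the 3 comparisons of 2D cultures (right), with filled points for an FDR below 0.05 and open points for the rest. Sfrp1 at 9.03 and Lef1 at 6.26 stand far to the right in spheroids, and most filled points of the 2D panel lie left of 0.

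Sfrp1, a secreted Frizzled-related protein that binds Wnt ligands, is listed as ENSMUSG00000031548.7 and spans 23411502 to 23449632 of chromosome 8 (GRCm38, GENCODE M21). Its linear fold change in spheroids was 524, with an FDR of 1.35e-05. Lef1 (ENSMUSG00000027985.14), on chromosome 3 from 131110471 to 131224356, had a linear fold change of 76.4, with an FDR of 3.55e-05. It was listed in the spheroid table and in none of the 3 tables of 2D cultures. A fold change of this size can stand against a group with few reads, and then hangs on offsets not given here, so both are read as large and not as exact.

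Among the ligands in spheroids, 2 rose, 2 fell and 2 did not pass. Wnt7a fell by 3.12 on the log2 scale, with an FDR of 0.000111, just short of the signature limit. Wnt9a fell by 2.21, with an FDR of 0.000223. Wnt7b rose by 1.65 and Wnt10b by 1.29, with FDRs of 0.000623 and 0.00147. The ligands thus did not move one way. Wnt10a, at -0.54, and Wnt5b, at 0.83, did not pass. Porcn, which attaches the lipid without which Wnt proteins are not secreted, fell by 2.02 with an FDR of 0.00115, while Wls, the carrier, had a log2 fold change of 0.05 and did not pass.

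Of the 7 Frizzled receptors listed in spheroids, 2 fell and 5 did not pass. Fzd4 (ENSMUSG00000049791.4, chromosome 7, 89404355 to 89413134) fell by 2.58, with an FDR of 2.26e-05. Fzd5 (ENSMUSG00000045005.9, chromosome 1, 64730558 to 64737751) fell by 2.05, with an FDR of 2.17e-05. The log2 fold changes of the other 5, Fzd1, Fzd2, Fzd3, Fzd6 and Fzd7, lay between -0.77 and 0.46. Ror1, a receptor for Wnt5a-type ligands (ENSMUSG00000035305.5, chromosome 4, 100095791 to 100444765), fell by 2.29, with an FDR of 8.05e-05. Among the co-receptors of the beta-catenin branch, Lrp6 fell by 0.73 with an FDR of 0.00627, and Lrp5, at 0.16, did not pass. Ryk, at 0.29, did not pass. Vangl2, a planar polarity protein, fell by 0.44, while its relative Vangl1, at 0.29, did not pass.

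The R-spondin receptors, which protect Frizzled from removal, went apart in spheroids. Lgr6 (ENSMUSG00000042793.13, chromosome 1, 134983301 to 135105276) rose by 2.32 with an FDR of 5.15e-05, and Lgr4 fell by 1.76 with an FDR of 9.63e-05. The ubiquitin ligases Rnf43 and Znrf3, which remove Frizzled from the surface, fell by 1.25 and 0.95, with FDRs of 0.00101 and 0.0016. Of the Dishevelled genes, Dvl2 rose by 0.67, Dvl3 fell by 0.52, and Dvl1, at 0.09, did not pass. Axin1 rose by 0.52, with an FDR of 0.0357, Apc had a log2 fold change of -0.61 with an FDR of 0.0514, and Ctnnb1 fell by 0.56 with an FDR of 0.00252. Nkd2, an inhibitor of Dishevelled, had a log2 fold change of 0.15 and did not pass.

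All 4 TCF/LEF factors passed in spheroids. Lef1 rose as given above and Tcf7 rose by 1.09, with an FDR of 0.044, while Tcf7l1 fell by 1.28 and Tcf7l2 by 0.88, with FDRs of 0.00978 and 0.00123. Tcf7l1 is known mainly as a repressor of Wnt targets. Of the 5 Groucho co-repressors, Tle4 (ENSMUSG00000024642.16, chromosome 19, 14448150 to 14598051) fell by 2.72 with an FDR of 1.51e-05, Tle1 fell by 1.07 and Tle6 rose by 2.79 with an FDR of 0.00169. Tle2, at 0.42, and Tle3, at 0.34, did not pass. Tle2 and Tle6 are 58 bases apart on opposite strands of chromosome 10, and whether the counting used the strand is not given in the sources used here.

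Epithelial markers moved in the same comparison. Cdh1, Epcam and Krt14 had log2 fold changes of -3.12, -2.84 and -2.21 in Padi4WT against Padi4KO spheroids, and Krt8 and Krt18 of 1.23 and 0.90, all 5 with an FDR below 0.05. Of the stromal markers, Pdgfrb had a log2 fold change of 4.56, Col1a1 of -4.19 and Pdgfra of -0.01, with FDRs of 0.000456, 0.000186 and 0.964. Their part in the Wnt pathway values was not tested.

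In 2D culture, the addition of NEPs to Padi4KO cells was compared with vehicle. Most members that moved fell: of 41 in the table, 28 passed, or 68.3% against 55.4% of all genes, of which 22 fell and 6 rose. That is 53.7% of the members lower and 14.6% higher, where 31.1% of all genes fell and 24.3% rose. The median log2 fold change was -0.34 over the members and -0.05 over all genes. Lgr6, Fzd1, Porcn, Tle2, Nkd2, Wnt10a and Tcf7l1 fell by more than 1 on the log2 scale, and Sfrp1 and Ror1 rose by more than 1. These are 9 members, and 11.1% of all genes passed the same size. The signature limits were passed by 1 member, Sfrp1, and by 2.65% of all genes. Sfrp1 was not listed for apoDBs against vehicle, so it may have been kept only through the NEPs samples.

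**Figure D2:**
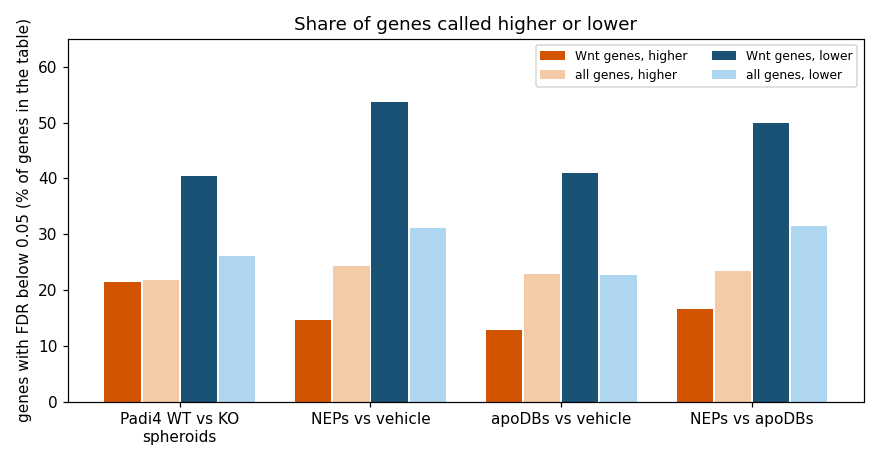
Percentage of the Wnt pathway genes and of all genes in each table with an FDR below 0.05, higher or lower in the first group of the comparison (bars from 0). Lower Wnt pathway genes exceed the share of all genes in each comparison, at 53.7% against 31.1% for NEPs against vehicle.

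All 5 ligands in that table fell with NEPs. Wnt7a had a log2 fold change of -0.91, Wnt10a of -1.04, Wnt9a of -0.95, Wnt10b of -0.74 and Wnt7b of -0.55, with FDRs from 5.05e-06 for Wnt7a to 0.00374 for Wnt10b. Porcn fell by 1.19 with an FDR of 1.15e-05, and Wls rose by 0.38 with an FDR of 0.00515. The receptors were divided: Fzd1 fell by 1.63, with an FDR of 3.68e-05, Fzd4 by 0.97 and Fzd2 by 0.68, Fzd7 rose by 0.22, and the other 4 did not pass. Lrp6 fell by 0.34 with an FDR of 0.00311, and Lrp5, at -0.19, did not pass.

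Lgr6 fell by 1.94 with NEPs, with an FDR of 6.78e-07, and Lgr4, at 0.14, did not pass. Sfrp1 rose by 2.48 with an FDR of 6.41e-05, and Ror1 by 1.11 with an FDR of 0.0067. Neither was listed for apoDBs against vehicle, and the low-expression filter is not given. Both may have been kept only through the NEPs samples, where they are higher, so their rise can stand against few reads. Vangl1 rose by 0.49 while Vangl2 fell by 0.87. Znrf3 fell by 0.34, and Rnf43, at 0.20, did not pass. In the cytoplasm, Nkd2 fell by 1.07 with an FDR of 0.0157, Dvl3 by 0.46, Dvl2 by 0.31 and Apc by 0.26. Dvl1, Axin1 and Ctnnb1 had log2 fold changes of -0.14, 0.01 and -0.11 and did not pass.

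Among the nuclear factors, Tcf7l1 fell by 1.02 with NEPs against vehicle, with an FDR of 5.28e-05, Tcf7l2 fell by 0.43, and Tcf7 rose by 0.57 with an FDR of 0.0288. Tle2 fell by 1.14, Tle4 by 0.78 and Tle3 by 0.70, with FDRs of 0.00188, 9.17e-05 and 1.9e-05. Tle1, at 0.01, and Tle6, at -0.40, did not pass.

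ApoDBs against vehicle gave smaller values. Of 39 members in the table, 21 passed, or 53.8% against 45.5% of all genes, with 16 lower and 5 higher. That is 41.0% lower and 12.8% higher, where 22.6% of all genes fell and 22.9% rose. The median log2 fold change was -0.18 over the members and 0.01 over all genes. Only Lgr6 among the members passed a log2 size of 1, falling by 1.22 with an FDR of 4.06e-05, where 5.01% of all genes did so. By the limma p-values, 0 members passed the signature limits, against 0.233% of all genes. An unadjusted p below 0.05 was found for 23 of 39, a count for which the share of all genes was not computed.

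With apoDBs, Wnt9a fell by 0.98, Wnt7a by 0.72, Wnt10a by 0.48 and Wnt10b by 0.43, while Wnt7b, at 0.06, and Wnt6, at 0.57, did not pass. Fzd4 fell by 0.81, Fzd7 by 0.65, Fzd1 by 0.52, Fzd3 by 0.37 and Fzd6 by 0.19, and Fzd5 rose by 0.30. Porcn fell by 0.54 and Vangl2 by 0.42. The 5 members that rose were Ctnnb1, at 0.49 with an FDR of 0.000366, Tle4 at 0.43, Tcf7l2 at 0.30, Fzd5 at 0.30 and Ryk at 0.29. Lrp6, Apc, Dvl3 and Znrf3 fell by between 0.21 and 0.36. Sfrp1, Ror1 and Fzd9 are members of the NEPs tables that were not listed for apoDBs against vehicle.

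NEPs against apoDBs compares the products of dying Padi4WT donors with those of dying Padi4KO donors. Nuclear expulsion and the genotype of the donors therefore cannot be told apart in it. Whether any RNA of the donors was in the samples was not tested. Of 42 members, 28 passed, or 66.7% against 54.8% of all genes, with 21 lower and 7 higher. That is 50% lower and 16.7% higher, where 31.4% of all genes fell and 23.4% rose. The median log2 fold change was -0.25 over the members and -0.06 over all genes. A size above 1 was reached by 6 members and by 8.4% of all genes. They were Sfrp1, at 2.04, and Ror1, at 1.07, which rose, and Wnt6, Tcf7l1, Tle4 and Fzd1, which fell by 1.92, 1.33, 1.23 and 1.18. Sfrp1 and Ror1 were not listed for apoDBs against vehicle, and Wnt6 was not listed for NEPs against vehicle. Sfrp1, Ror1 and Wnt6 may each have been kept only through the group where they are higher, against few reads in the other. An unadjusted p below 0.05 was found for 30 of 42, a count for which the share of all genes was not computed. By the limma p-values, 0 members passed the signature limits, against 2.21% of all genes. Sfrp1 missed these limits narrowly, with an FDR of 0.000100329.

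Of the nuclear genes, 2 TCF factors, 3 Groucho genes and Ctnnb1 were lower with NEPs than with apoDBs. Tcf7l1 (ENSMUSG00000055799.13, chromosome 6, 72626378 to 72789254) had an FDR of 1.21e-05. Tle4 had an FDR of 5.85e-07, and Tle2 fell by 0.99 and Tle3 by 0.68. Tcf7l2 fell by 0.74, with an FDR of 2.81e-05, and Ctnnb1 (ENSMUSG00000006932.17, chromosome 9, 120929216 to 120960507) by 0.61, with an FDR of 5.46e-06. Tcf7, at 0.35, and Tle1, at -0.08, did not pass.

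Read beside the comparisons against vehicle, which share the vehicle samples with each other and the treated samples with this comparison, the members fell into several patterns. The share of all genes in each pattern was not computed, so the counts are not read as particular to the members. Dvl3, Fzd1, Lgr6, Porcn, Vangl2, Wnt10a, Wnt7a and Znrf3, 8 genes, were lower with NEPs and with apoDBs than with vehicle and lower with NEPs than with apoDBs. Another 5 genes, Apc, Fzd4, Lrp6, Wnt10b and Wnt9a, fell with both against vehicle and did not pass between NEPs and apoDBs, where their log2 fold changes lay between -0.33 and 0.10. Dvl2, Fzd2, Tcf7l1, Tle2, Tle3 and Wnt7b, 6 genes, were lower with NEPs than with vehicle and with apoDBs, and did not pass with apoDBs against vehicle. Ctnnb1, Fzd5 and Ryk rose with apoDBs against vehicle, did not pass with NEPs against vehicle, and were lower with NEPs than with apoDBs.

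The ligand Wnt6 and the ligand Wnt10a are neighbors on chromosome 1, 6193 bases apart. Wnt6 fell by 1.92 with NEPs against apoDBs, with an FDR of 0.00639, and was listed neither for NEPs against vehicle nor in spheroids. Wnt6 may thus have been kept only through the apoDBs samples, where it is higher, so its fall can stand on few reads. Wnt10a fell by 0.56 in the same comparison, with an FDR of 0.00192. Other receptors higher with NEPs than with apoDBs were Fzd7, by 0.86 with an FDR of 1.64e-06, Fzd3 by 0.52 and Fzd6 by 0.18, none of which passed in spheroids. Vangl1 and Wls rose by 0.45 and 0.41. Lower were Lgr6 by 0.74, Porcn by 0.66, Wnt7b by 0.62, Vangl2 by 0.45, Fzd5 by 0.45 and Fzd2 by 0.44. Lrp5 and Ryk fell by 0.31 each, Dvl2 by 0.30, and Dvl3, Wnt7a and Znrf3 by between 0.14 and 0.20. Lgr4, Rnf43, Tle6, Nkd2, Fzd9, Apc, Axin1 and Dvl1 did not pass.

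The epithelial markers Epcam, Krt8 and Krt18 were also lower with NEPs than with apoDBs, with log2 fold changes of -0.80, -0.81 and -0.76, while Cdh1 had 0.27 and Krt14, which did not pass, -0.04. Against vehicle, Epcam, Krt8 and Krt18 rose with apoDBs, by 0.44, 0.69 and 0.50. With NEPs against vehicle they stood at -0.40, -0.14 and -0.26, where Krt8 did not pass. Of the stromal markers only Pdgfra was listed, at 0.19 with an FDR of 0.0353, and of the immune markers only Csf1r, at -0.91 with an FDR of 0.000123. The part of these markers in the Wnt pathway values was not tested.

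Spheroids and NEPs against apoDBs have no samples in common, and 40 members were in both tables. Their log2 fold changes had the same sign in 25 of the 40. The share over all genes was not computed for this count, so no agreement is read from it. Spearman's rho was 0.0021 over these members and 0.187 over all 12999 genes of both tables, given as a description across genes, which are not independent replicates. Members that passed in both numbered 15, or 37.5%, where 28.5% of the genes in both tables did so, and 25% of the members were lower in both, where 10.8% of all genes were. Of the 15, 10 were lower in both, namely Ctnnb1, Dvl3, Fzd5, Porcn, Tcf7l1, Tcf7l2, Tle4, Vangl2, Wnt7a and Znrf3, and Sfrp1 was higher in both. The other 4 went opposite ways: Dvl2, Lgr6 and Wnt7b were higher in Padi4WT spheroids and lower with NEPs, and Ror1 was lower in Padi4WT spheroids and higher with NEPs. Sfrp1 and Ror1 may have been kept in NEPs against apoDBs only through the NEPs samples. Their rise there may thus be set by the filter, and neither agreement nor disagreement is read from these 2 genes. Lgr6 combined a log2 fold change of 2.32 in spheroids with -1.94 when NEPs, and -1.22 when apoDBs, were compared with vehicle.

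**Figure D3:**
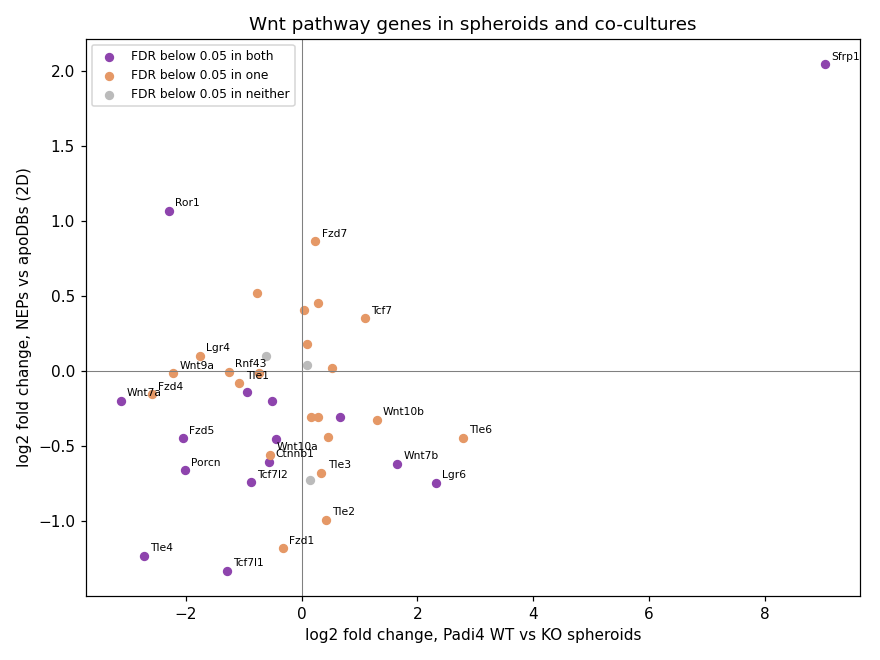
Log2 fold change of 40 Wnt pathway genes in Padi4WT against Padi4KO spheroids (horizontal) and in NEPs against apoDBs in 2D culture (vertical), colored by whether the FDR was below 0.05 in both, in one or in neither. Tle4 and Tcf7l1 lie low on the left, Sfrp1 alone at the upper right, Ror1 at the upper left, and Lgr6 and Wnt7b at the lower right. Sfrp1 and Ror1 may have been kept on the vertical axis only through the NEPs samples, where they are higher.

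Other genes of the pathway were read from a list of 46, of which 34 were in at least 1 table. In spheroids 11 of 34 rose and 6 fell, or 32.4% and 17.6%, beside 21.7% and 26.1% of all genes. With NEPs against vehicle 7 of 30 rose and 12 fell, or 23.3% and 40%, beside 24.3% and 31.1% of all genes. With apoDBs against vehicle 2 of 28 rose and 8 fell, or 7.14% and 28.6%, beside 22.9% and 22.6%. With NEPs against apoDBs 7 of 30 rose and 11 fell, or 23.3% and 36.7%, beside 23.4% and 31.4%. In spheroids, Apcdd1, a membrane inhibitor, had a linear fold change of 122 with an FDR of 5.35e-06, and Cxxc4, which binds Dishevelled, one of 142 with an FDR of 4.72e-05. Cxxc5 and Dact3 rose by 2.93 and 2.29 on the log2 scale. Gpc4, a cell-surface proteoglycan, rose by 6.43 with an FDR of 0.0058, Pygo1, a co-activator of beta-catenin, by 3.42, and Rspo3, a ligand of the Lgr receptors, by 2.81. Apc2, a relative of Apc, fell by 2.70 and Dact1 by 1.43. As for Sfrp1 and Lef1, the large values of Apcdd1, Cxxc4 and Gpc4 can stand against few reads and are not read as exact. Cxxc4, Pygo1 and Dact3 were listed in spheroids only.

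In 2D culture, Gpc4 and Rspo3 rose with NEPs as well. Gpc4 had log2 fold changes of 4.83 against vehicle and 5.21 against apoDBs, with FDRs of 1.29e-05 and 7.36e-06. Rspo3 had 2.62 and 2.87, with FDRs of 0.035 and 0.0358, and neither gene was listed for apoDBs against vehicle. Gpc4 and Rspo3 may thus have been kept only through the NEPs samples, where they are higher. Their rise and its FDR can then stand against groups with few reads. Celsr2, a planar polarity cadherin, rose by 0.45 with NEPs and fell by 1.15 with apoDBs against vehicle, and it was higher by 1.60 with NEPs than with apoDBs. Amer1, which binds Apc, rose by 0.70 with NEPs, fell by 0.41 with apoDBs and was higher by 1.12 between them. Notum, a secreted enzyme that inactivates Wnt proteins, rose by 0.70 with NEPs and by 1.49 with apoDBs, and was lower by 0.78 with NEPs than with apoDBs. Apc2 fell by 1.55 with NEPs and by 0.60 with apoDBs against vehicle, and Bcl9l, a co-activator of beta-catenin, fell by 1.03 with NEPs. Also with NEPs against vehicle, Cxxc5 fell by 1.21 and Dact1 stood at -1.66, with an FDR of 0.00945.

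Textbook targets of beta-catenin and TCF numbered 18, of which 14 were listed. The list holds none of the 44 members, so Lef1, Tcf7, Rnf43 and Znrf3 are not counted in it. In spheroids 6 rose, 4 fell and 4 did not pass, so that 42.9% rose and 28.6% fell, beside 21.7% and 26.1% of all genes. Fosl1, an AP-1 subunit, rose by 5.07, Wisp2, a matricellular protein, by 5.84, the cyclin Ccnd1 by 1.97 and the urokinase receptor Plaur by 1.63. Wisp2 was listed in spheroids only, and its value can stand against few reads. Ephb3, an ephrin receptor, fell by 2.37 and the transcription factor Sox9 by 1.20. With NEPs against vehicle 3 of 13 rose and 4 fell, or 23.1% and 30.8%, beside 24.3% and 31.1% of all genes. With apoDBs against vehicle 4 of 13 rose and 3 fell, or 30.8% and 23.1%, beside 22.9% and 22.6%. With NEPs against apoDBs 4 of 13 rose and 9 fell, or 30.8% and 69.2%, beside 23.4% and 31.4%. Wisp1, a relative of Wisp2, rose by 2.57 with an FDR of 1.88e-07, and Fosl1 by 0.67. Tnfrsf19, a receptor of the tumor necrosis factor family, fell by 3.69 with an FDR of 0.000597, Ccnd1 by 0.75 and Sox9 by 0.76. Against vehicle, Ccnd1 stood at 0.02 with NEPs, which did not pass, and rose by 0.80 with apoDBs. Sox9 likewise stood at 0.21 with NEPs, which did not pass, and rose by 0.97 with apoDBs. Jag1, a Notch ligand, fell by 1.03 with NEPs and by 0.88 with apoDBs. These genes also answer to other pathways, and they did not move one way in any of the 4 comparisons.

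**Figure D4:**
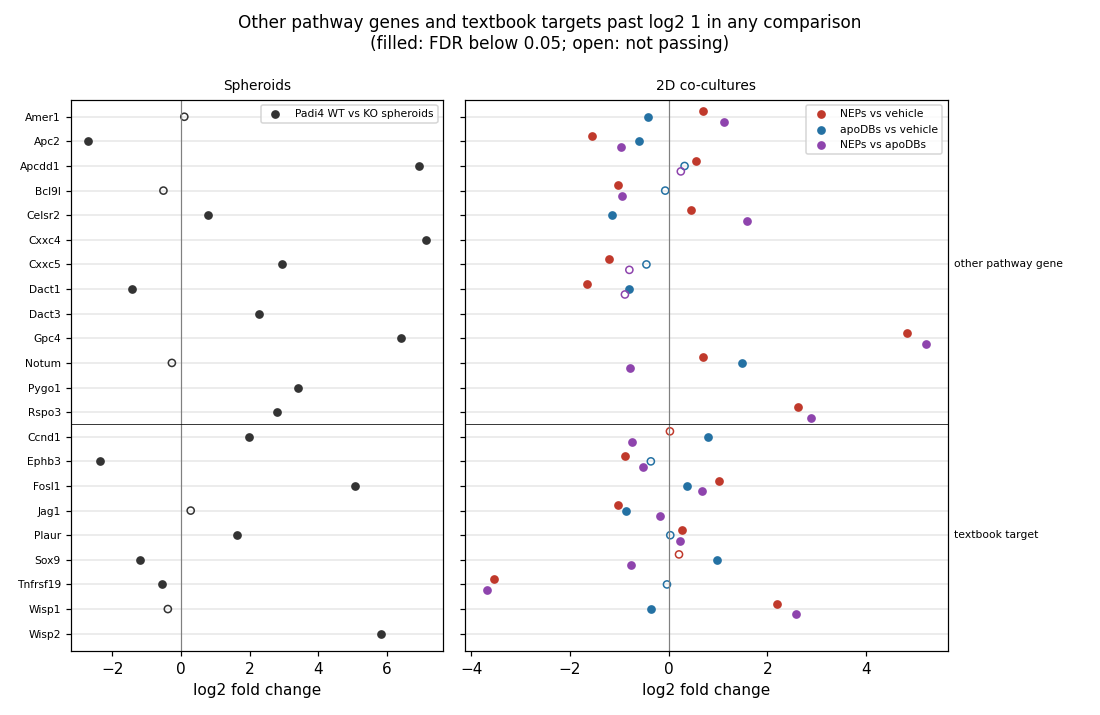
Log2 fold change of the other pathway genes and textbook targets that passed the FDR of 0.05 with a log2 size over 1 in at least 1 comparison, in spheroids (left) and in 2D cultures (right), with filled points for an FDR below 0.05. Cxxc4, Apcdd1 and Gpc4 lie at 6.43 or more in spheroids, and Tnfrsf19 lies below -3 with NEPs against vehicle and against apoDBs.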

How the data were processed

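RNA from 15 samples in 5 groups of 3 was extracted with a Zymo kit and sequenced on an Illumina NextSeq. The authors made the deposited tables with limma within the CCBR Pipeliner. The build that the submitters' processing notes name is mm9, while 99.9% of the identifiers in each table are in GENCODE M21 (GRCm38) and 93.6% to 93.7% have its version, so positions are those of M21 or RefSeq. The aligner, counter, low-expression filter and normalization are not given in the sources used here. The deposited fold change is a score on the linear scale, with a decrease given as a negative number. The p-value in the deposited tables is not adjusted. Since the tables hold nothing else, these values of the authors' comparisons are the ones described, and no model was refitted.

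Fold changes were converted to log2, and p-values were adjusted after Benjamini and Hochberg over 14053 genes for spheroids, 13541 for NEPs and 13307 for apoDBs against vehicle, and 13419 for NEPs against apoDBs. The tables give no depth, so the precision it sets is unknown. The members, lists and tests were chosen with earlier results of these data known. Values are given for members and listed genes with an FDR below 0.05 and an absolute log2 fold change above 1 in any comparison, and for core members whatever their values. No set test was run. Alternatives were other limits, adjustment over the 12686 genes in all 4 tables, joining by symbol, centring, means and the difference of the comparisons against vehicle. Calculations were run in Python (3.11.15) with pandas (2.3.3), numpy (2.4.6) and scipy (1.17.1), plots with matplotlib (3.10.9), and the code was tested on simulated data.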

Additional observations from a re-analysis of the deposited data

Results flagged for a closer look

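In 3 genes, NEPs and apoDBs moved expression in opposite directions against vehicle, with an FDR below 0.05 in both. The genes were also picked for an FDR below 0.05 in the direct comparison of NEPs with apoDBs. That comparison uses the same treated samples, so its passing is not read as separate support. The comparisons share the vehicle samples, and how many of all genes show this pattern was not computed. Fzd7, a receptor, had log2 fold changes of 0.22 with NEPs and -0.65 with apoDBs, and of 0.863 between them. Tcf7l2, a TCF factor, had -0.43 and 0.30, and -0.739 between them. Tle4, a co-repressor, had -0.78 and 0.43, and -1.23 between them.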

How the results depend on the processing

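Of 57 alternative values for the counts and medians, 36 stayed the same within 1.5 times for a count or 0.1 for a median. The members called fell to 7 in spheroids, 1 with NEPs against vehicle and 0 in both comparisons with apoDBs under the signature limits. With a log2 size above 1 at an FDR below 0.05 they fell to 9 with NEPs against vehicle, 1 with apoDBs against vehicle and 6 with NEPs against apoDBs, and with an FDR below 0.01 to 12 with apoDBs against vehicle. These limits are stricter by construction. Past an FDR of 0.0001, a log2 limit of 1 in place of 2 gave 5 members with NEPs against vehicle, 1 with apoDBs against vehicle and 2 with NEPs against apoDBs. An FDR below 0.05 with the log2 limit of 2 gave 11 in spheroids and 1 with NEPs against apoDBs. Shares of all genes were not computed for these limits or for an FDR below 0.01, so no excess is read from the counts. The median in spheroids turned to a mean of 0.0088, with Sfrp1 and Lef1 in it, and was -0.38 over members in all 4 tables, so its sign depends on the summary. For the 48 listed genes of the pathway and its targets, alternatives added after seeing the data called 16 in spheroids and, for apoDBs against vehicle, 11 at an FDR below 0.01. With a log2 size above 1 they gave 15 in spheroids, 10 with NEPs against vehicle, 2 with apoDBs against vehicle and 6 with NEPs against apoDBs. The shares of all genes past this size were given above. For single members, adjustment over the genes in all 4 tables (152 values) changed no call. Centring on a table's median (164 values) leaves the FDR as it is and so tests no call, and it turned the direction of no called gene. The difference of the comparisons against vehicle (38 values) has no test of its own and lay within 0.063 of the direct log2 fold change. No paired analysis was possible because the tables hold no values per sample, and for the same reason leaving out replicates and another normalization were not run.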
